A study of Mus musculus with 6 samples.

Results

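The type I interferon stimulated genes are a set of 38 genes whose transcription rises when a cell senses interferon alpha or beta. They were chosen by name as established members of that response, and all 38 were found among the 55414 genes of the deposited count table. The libraries come from OT-I mice, whose CD8+ T cells carry one transgenic antigen receptor for a peptide of ovalbumin. There were 3 groups of 2 libraries, all from the combined spleen and lymph nodes: cells taken on day 4 after the N4 peptide (the ovalbumin peptide itself), cells taken on day 4 after T4 (a variant that stimulates the same receptor less strongly), and naive cells. Both peptides were given together with antibodies against the costimulatory receptors OX40 and 4-1BB, so the peptide groups differ in the peptide, while the naive group differs from both in peptide and antibodies. The labels name no added interferon, no infection and no sorting gate, and do not say that the 2 libraries of a group came from separate mice. The p-values below therefore reflect only how far these particular libraries differ, and that spread may be technical.

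Type I interferons bind a receptor made of IFNAR1 and IFNAR2, whose kinases JAK1 and TYK2 phosphorylate STAT proteins, STAT2 among them. These join IRF9 in a complex called ISGF3, which binds interferon-stimulated response elements in the promoters of its target genes. Many of those targets encode sensors of viral nucleic acid, proteins that block viral RNA or its translation, and the transcription factors of the pathway itself, while USP18 and SOCS1 restrain it. T cells hold a low level of this program at rest, and type I interferon can act beside antigen and costimulation as a further signal to CD8+ T cells.

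The response element is visible in the promoters of many of these genes. Of the 38 genes, 29 had a RefSeq promoter of build GRCm38.p6, defined as 250 bases before to 50 bases after a transcription start. The core of the response element was searched as GAAA, any 2 bases and GAAA again, on both strands, so that TTTC, any 2 bases and TTTC is also a match, and overlapping matches were counted. It was present in 16 of the 29 genes (55.2%), against 3.99% of all 27025 genes with a promoter in the table. The windows below are shown because they cover genes that differed between the groups (Ifit1, Ifit3, Ifit3b and Rsad2) and genes that did not pass any test (Isg15, Bst2 and Oas3). Each is written 5′ to 3′ on the gene's strand, with the matching bases in capitals.
Ifit1: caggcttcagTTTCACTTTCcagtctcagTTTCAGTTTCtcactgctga
Ifit3: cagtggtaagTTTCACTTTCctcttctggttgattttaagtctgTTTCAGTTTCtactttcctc
Ifit3b: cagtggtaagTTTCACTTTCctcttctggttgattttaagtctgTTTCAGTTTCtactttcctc
Rsad2: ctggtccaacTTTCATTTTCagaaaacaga
Isg15: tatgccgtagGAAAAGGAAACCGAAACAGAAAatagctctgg
Bst2: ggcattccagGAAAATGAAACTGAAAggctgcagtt
Oas3: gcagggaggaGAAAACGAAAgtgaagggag

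These windows lie at chr19:34640775-34640823 (Ifit1, plus strand), chr19:34583363-34583426 (Ifit3, plus), chr19:34607759-34607822 (Ifit3b, plus), chr12:26456553-26456582 (Rsad2, minus), chr4:156200865-156200906 (Isg15, minus), chr8:71537577-71537612 (Bst2, minus) and chr5:120777715-120777744 (Oas3, minus). Ifit3 and Ifit3b, neighbouring copies of one gene, have the same 64 bases in this window. Isg15 has 3 overlapping matches and Bst2 has 2. A match here is a stretch of letters and not a shown binding site. The 9 genes Ifi204, Ifi27l2a, Mx1, Oas2, Parp14, Parp9, Rtp4, Usp18 and Zbp1 had no entry in the promoter table.

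All 38 genes passed the filter on low counts, so all were among the 23003 genes tested. The libraries held between 269033066 and 335968843 estimated counts. Levels are given as CPM, the counts relative to the library total scaled by the TMM method, and fold changes are log2 values with their standard error (SE). Adjusted p-values come from edgeR's quasi-likelihood test over all 6 libraries with Benjamini-Hochberg adjustment over all genes tested, and a gene is said to have changed only where this value is under 0.05. The markers of CD8 T cells (8 genes, such as Cd3e, Cd8a and Thy1) summed to 3300 to 4840 CPM in every library, and Cd4 did not exceed 0.108 CPM. Most of that sum came from Cd3d and Cd3g. Between N4 and T4, 5 of the 8 were lower in N4 without overlap (37.6% of all genes tested) and 3 higher (27.6%). Their median log2 fold change was -0.62, with none called. Against naive the median was -0.66 in N4 and 1 gene, Cd2, was called lower (7.18% of all genes tested). Cd8b1 stood at 187 and 164 CPM in N4, 433 and 416 CPM in T4, and 703 and 321 CPM in naive libraries. The part of this in the levels of the 38 genes was not tested.

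The geometric mean of the 38 genes was 6.41 and 6.75 CPM in N4, 16.4 and 15.2 CPM in T4, and 11.7 and 12.5 CPM in naive libraries. The 3 groups did not overlap in this summary, with N4 lowest and T4 highest. The summed level of the 36 genes other than Ifi27l2a and Bst2 was 586 and 754 CPM in N4 and 1190 and 1170 CPM in T4. In naive libraries that sum was 958 and 1260 CPM, so N4 was lowest and naive spanned T4. Single genes followed several orders. The order of group means N4 below naive below T4 was shown by 19 of the 38 genes, against 21.8% of all genes tested. N4 below T4 below naive was shown by 7 (23.4% of all genes), and naive below N4 below T4 by 7 (11.3% of all genes). The remaining 5 were Oas3 and Ifi27l2a (naive below T4 below N4, 17% of all genes), Bst2 and Dtx3l (T4 below naive below N4, 18.1%) and Ifi47 (T4 below N4 below naive, 8.39%). Both N4 libraries lay below all 4 other libraries for 21 genes, a pattern of 20.7% of all genes tested. Both T4 libraries lay above all 4 others for 16 genes, a pattern of 14% of all genes, and both below all others for 0 (8.74% of all genes). A gene can show more than one of these patterns, as Ifit3 and Isg20 did with N4 lowest and T4 highest. No group stood apart for Oas3, Bst2, Isg15, Herc6 and Dtx3l, as for 35.6% of all genes.

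**Figure D1:**
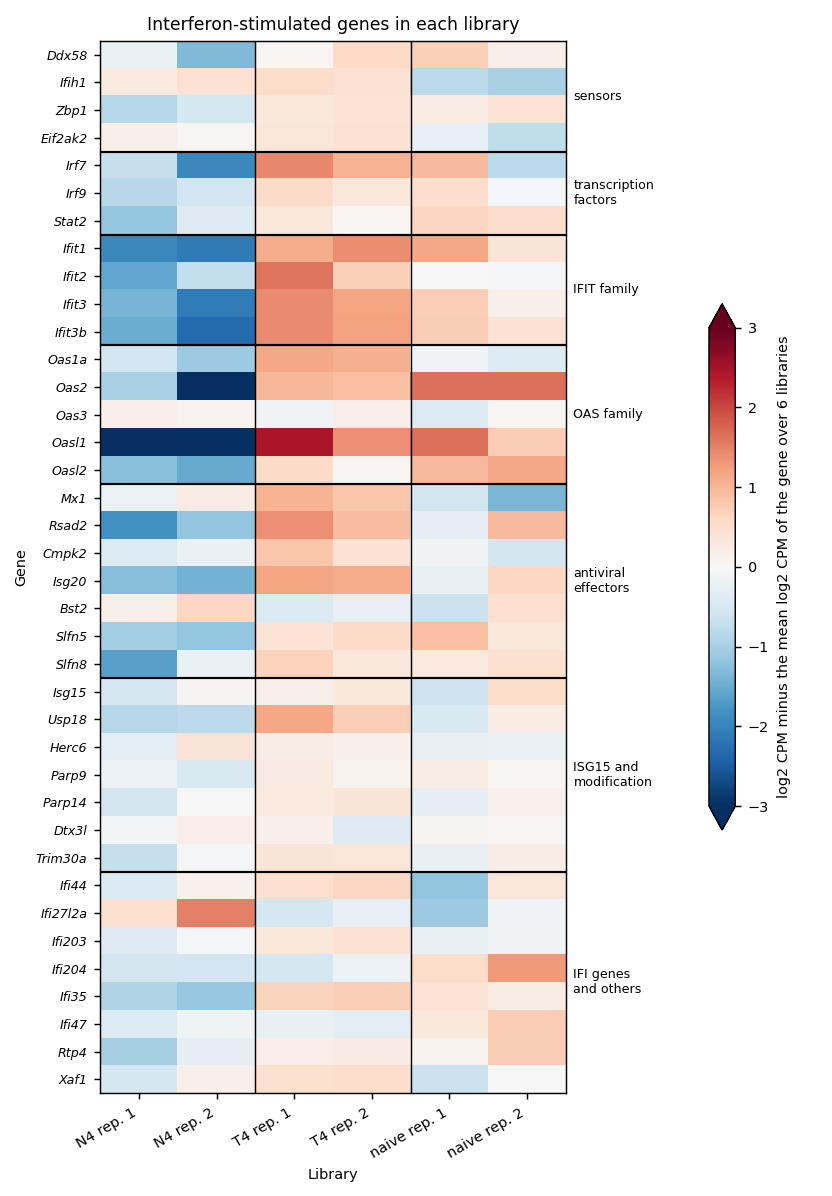
Level of each of the 38 genes (rows, grouped by role) in each of the 6 libraries (columns), as log2 CPM minus the gene's mean log2 CPM over the 6 libraries; blue is below and red above that mean, and the colour scale ends at -3 and 3. The IFIT family, Oasl1, Isg20 and Ifi35 are blue in both N4 libraries and red in both T4 libraries, while Ifi27l2a is red in N4 and Oas3, Herc6 and Dtx3l stay near their means.

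Compared per length of transcript, as TPM (a share of the library corrected for transcript length) averaged over the 6 libraries, the genes covered a wide range. Ifi27l2a, which encodes a small hydrophobic protein, had by far the highest mean at 5127 TPM. It was followed by Bst2, which encodes tetherin, a protein that holds budding virus at the cell surface, at 390 TPM, and by Isg15, a ubiquitin-like modifier, at 139 TPM. The lowest was Oas2 at 0.452 TPM. The genes of lowest level include most of the IFIT and OAS families, so the differences reported for them are between low levels.

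The comparison of N4 with T4 asks how the stronger and the weaker peptide differ at day 4. Of the 38 genes, 11 were lower in N4 than in T4 and none was higher. Among all genes tested 7.96% were called, 4.47% as lower and 3.48% as higher (1029 and 801 genes, or 1736 and 320 under scaling by library size alone). The 11 were Ifit1, Ifit3, Ifit3b, Oas1a, Oasl1, Oasl2, Rsad2, Isg20, Slfn5, Usp18 and Ifi35. The median log2 fold change of the 38 genes was -0.94, with 33 below 0, while that of all genes tested was -0.20 with 55.8% below 0. Both N4 libraries lay below both T4 libraries for 31 genes (37.6% of all genes) and above them for 2, Bst2 and Ifi27l2a (27.6% of all genes). In bulk RNA, fewer cells expressing a gene and less of its RNA per cell cannot be told apart. Each call rests on 2 libraries against 2, and the count dropped to 1 when N4 replicate 1 was left out, and to 0 when N4 replicate 2, T4 replicate 1 or T4 replicate 2 was. In those fits a group is left with 1 library that is assumed to vary like the others. Between 32 and 35 of the 38 fold changes lay below 0, with medians of -1.16 to -0.72. The median of all genes in the same fits was -0.41 to -0.14, and the share of all genes below 0 was not computed. These fits reuse the libraries of the main fit, so the kept signs are no independent support. When naive replicate 1 or naive replicate 2 was left out the count was 15.

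The comparison of N4 with naive cells sets the strong stimulus against the resting state. In it 9 of the 38 genes were lower (7.18% of all genes tested) and 1, Ifih1, was higher (4.87% of all genes). The 9 were Zbp1, Ifit1, Ifit3, Ifit3b, Oasl1, Oasl2, Isg20, Slfn5 and Ifi35, and either direction together made up 12.1% of all genes tested (1652 lower and 1120 higher, or 1777 and 695 under scaling by library size alone). The median was -0.89, with 27 genes below 0, against -0.09 for all genes with 52.5% below 0. N4 lay below naive without overlap for 22 genes (28.9% of all genes) and above for 5 (26.5%). The count of lower genes dropped to 1 when N4 replicate 1 was left out, to 0 for N4 replicate 2 and to 3 for either T4 library, while it was 10 and 11 when naive replicate 1 or 2 was left out. It was also 3 (Ifit1, Oasl1 and Oasl2) when only the N4 and naive libraries were fitted.

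T4 against naive sets the weak stimulus against the same naive libraries, so that it is not independent of the previous comparison. None of the 38 genes passed edgeR's test in either direction, in a comparison in which only 0.117% of all genes tested did (0.0826% as higher and 0.0348% as lower). At an unadjusted p under 0.05 there were 7 higher and 2 lower genes, and the share of all genes at that level was not computed. DESeq2 called 3 higher and 1 lower of the 38, beside 850 higher and 1147 lower of the 23003 genes tested. The median was 0.38, with 28 genes above 0, against 0 for all genes with 50.1% above 0. When naive replicate 1 was left out the median of the 38 was 0.11, the same as that of all genes. T4 lay above naive without overlap for 18 genes (26.2% of all genes) and below for 5 (22.6%).

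**Figure D2:**
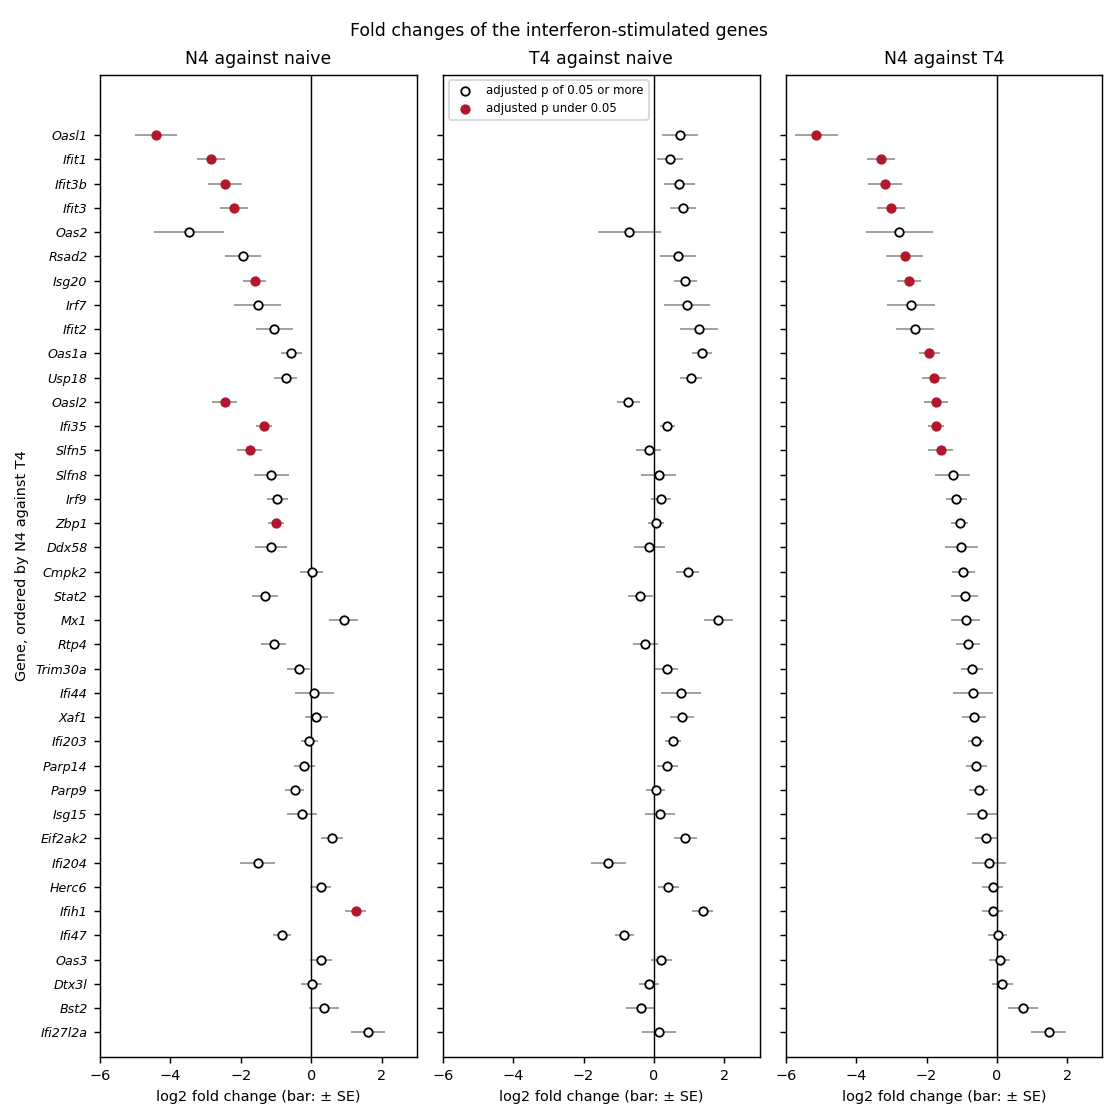
Log2 fold change (point) and SE (bar) of each of the 38 genes in the 3 comparisons, with genes ordered by N4 against T4; filled points have an adjusted p under 0.05. Filled points number 10 in N4 against naive (9 left of 0), none in T4 against naive and 11 in N4 against T4 (all left of 0), from Oasl1 at -5.14 to Slfn5 at -1.60.

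Among the sensors, Zbp1, which binds left-handed nucleic acid and can start cell death, stood at 32.5 and 41.2 CPM in N4, 74.8 and 78.8 CPM in T4, and 69.3 and 78.4 CPM in naive libraries. N4 lay apart and low, while T4 and naive overlapped. Zbp1 fell in N4 against naive (log2 fold change -1.0, SE 0.24, adjusted p = 0.0467) and narrowly missed the threshold against T4 (-1.06, SE 0.24, adjusted p = 0.0505). Ifih1, which encodes the RNA sensor MDA5, took the opposite place: 4.01 and 4.52 CPM in N4, 4.78 and 4.50 CPM in T4, and 1.88 and 1.67 CPM in naive libraries. Both naive libraries lay below all others, as they also did for Eif2ak2 and Mx1 (3 of the 38, against 10.6% of all genes), and Ifih1 rose in N4 against naive (1.26, SE 0.30, adjusted p = 0.0486). Of the 21 calls in the 3 comparisons, this one was lost under the most alternatives, 10 of 12: it was lost when any of N4 replicate 1, N4 replicate 2, T4 replicate 1, T4 replicate 2, naive replicate 1 and naive replicate 2 was left out (adjusted p of 0.0775 to 0.193), and under scaling by library size (0.68, adjusted p = 0.309), among others. It stayed with DESeq2 and with a filter of 1 CPM in 2 libraries. Its fold change of 1.39 in T4 against naive (SE 0.30) did not pass, with an adjusted p of 0.137.

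Ddx58, which encodes the RNA sensor RIG-I, stood at 5.88 and 2.7 CPM in N4, 7.05 and 10.2 CPM in T4, and 11.1 and 7.70 CPM in naive libraries. The N4 libraries differed between themselves and lay below the others, and no comparison passed. Eif2ak2, the kinase PKR that stops translation on double-stranded RNA, stood at 4.75 and 4.31, 5.46 and 5.69, and 3.56 and 2.47 CPM in the same order of groups. Naive was lowest and T4 highest without overlap, and no comparison passed.

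All 3 transcription factors had lower means in N4 than in both other groups, and none passed the test. Irf7, which amplifies interferon production, stood at 9.86 and 4.14 CPM in N4, 43.3 and 32.8 CPM in T4, and 31.0 and 9.02 CPM in naive libraries. N4 and T4 were far apart, but naive replicate 2 lay within the N4 range and naive replicate 1 close to T4, and the fold change of N4 against T4 was -2.44 (SE 0.69, adjusted p = 0.0793). Irf9, the DNA-binding part of ISGF3, stood at 6.49 and 7.86, 17.4 and 14.8, and 16.7 and 11.3 CPM. Its N4 libraries lay below the rest, with an adjusted p of 0.064 against T4 and 0.0883 against naive. Stat2 stood at 1.74 and 2.97, 4.94 and 3.99, and 6.07 and 5.63 CPM, with the 3 groups in separate ranges and an adjusted p of 0.162 between N4 and T4. Exons of Irf7 overlap those of Phrf1 on the opposite strand and exons of Irf9 those of Rnf31, and the library kit does not mark strand, so their values are uncertain.

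The IFIT family, whose proteins bind foreign or uncapped RNA ends and block its translation, showed 3 of 4 genes lower in N4 against both T4 and naive. Ifit1 stood at 0.734 and 0.640 CPM in N4, 6.10 and 7.37 CPM in T4, and 6.21 and 3.68 CPM in naive libraries. N4 lay far below, and T4 and naive overlapped. Ifit1 fell by 3.29 on the log2 scale against T4 (9.81-fold, SE 0.40, adjusted p = 0.0216) and fell by 2.85 against naive (SE 0.39, adjusted p = 0.0134). Ifit3 stood at 1.72 and 1.05, 12.1 and 10.3, and 7.58 and 4.98 CPM. Its 3 groups did not overlap, and it fell by 3.02 in N4 against T4 (SE 0.40, adjusted p = 0.0231) and fell by 2.19 against naive (adjusted p = 0.0239).

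Ifit3b stood at 0.480 and 0.264, 3.58 and 3.11, and 2.26 and 1.81 CPM, in the same order as Ifit3, and fell by 3.17 against T4 (adjusted p = 0.0264). It cannot be read as a separate observation: 51.2% of the 50-base stretches of Ifit3 transcripts also occur in Ifit3b. Ifit2 stood at 0.390 and 0.689 CPM in N4, 3.54 and 1.87 CPM in T4, and 1.13 and 1.10 CPM in naive libraries. Its groups did not overlap, but the T4 libraries were far apart, and the fold change of -2.33 in N4 against T4 narrowly missed the threshold (adjusted p = 0.055).

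The OAS family makes the messenger that activates RNase L, or in the case of the OAS-like genes binds RNA without that activity in some members. Oasl1, a translational inhibitor of Irf7, was the gene with the largest fold among the 38. It stood at 0.145 and 0.147 CPM in N4 (32 and 30 estimated counts), 6.99 and 3.31 CPM in T4, and 4.02 and 2.17 CPM in naive libraries. N4 was close to 0 while T4 and naive overlapped. Oasl1 fell by 5.14 in N4 against T4 (35.3-fold, SE 0.61, adjusted p = 0.0209) and fell by 4.41 against naive (21.2-fold, SE 0.59, adjusted p = 0.0129). Leaving out 1 library at a time, the first of these lay between -5.61 and -4.55.

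Oasl2 stood at 1.42 and 1.19, 5.10 and 3.53, and 6.68 and 7.67 CPM. It was highest in naive cells, without overlap, and fell by 1.72 in N4 against T4 (adjusted p = 0.0395) and fell by 2.46 against naive (adjusted p = 0.0142). Oas1a stood at 6.30 and 4.40, 21 and 19.6, and 8.74 and 7.06 CPM. Here T4 stood apart and high, and N4 was below naive without overlap.

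Oas1a fell by 1.92 in N4 against T4 (SE 0.30, adjusted p = 0.0265), and its fold change of 1.36 in T4 against naive had an adjusted p of 0.133. Its transcripts share 57.6% of their 50-base stretches with Oas1g, so part of this signal may belong to that copy. Oas2 was lowest in N4, where the libraries differed widely, at 0.471 and 0.0488 CPM, next to 1.84 and 1.72 CPM in T4 and 2.90 and 2.88 CPM in naive libraries, and did not pass (SE 0.96, adjusted p = 0.122 against T4). Oas3 stood at 6.70 and 6.48, 5.57 and 6.89, and 4.54 and 6.32 CPM. Its T4 libraries overlapped both other groups, N4 lay just above naive, and no comparison passed.

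**Figure D3:**
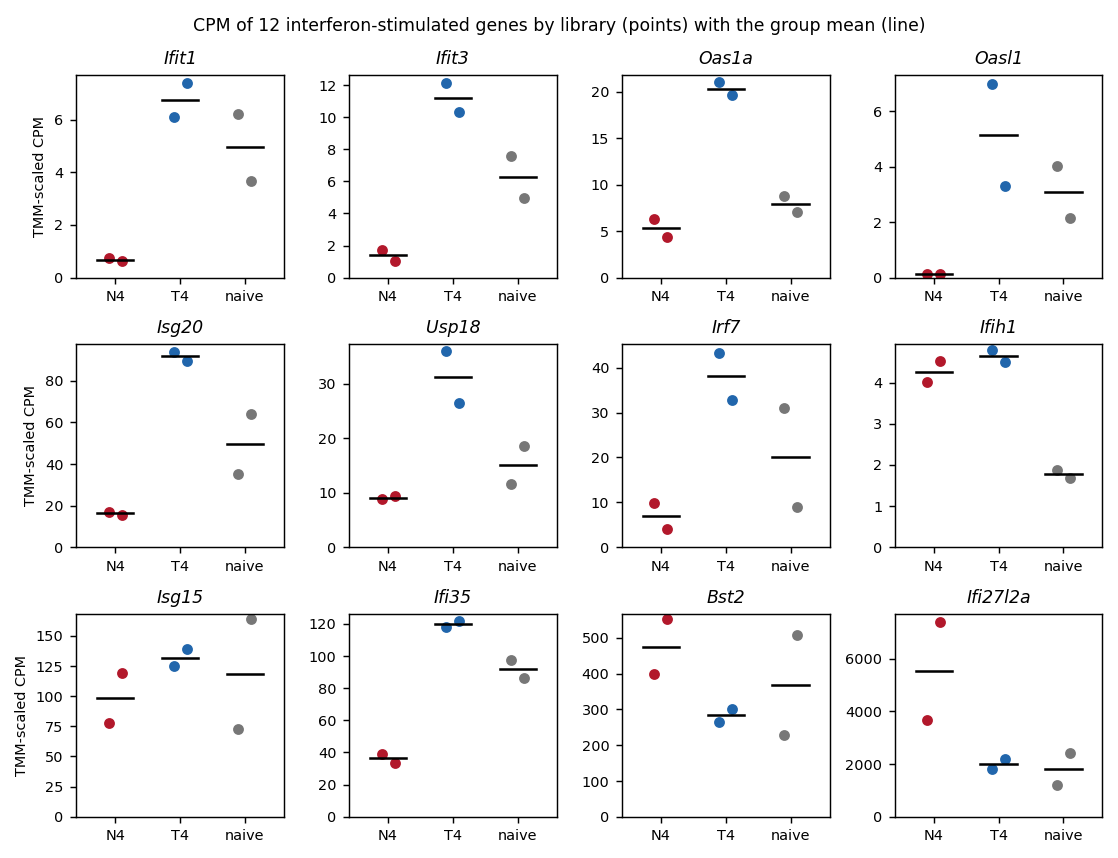
TMM-scaled CPM of 12 of the 38 genes in each library (points) with the group mean (line), on linear axes that start at 0 and differ between panels. Oasl1, Ifit1 and Ifit3 are lowest in N4, Oas1a, Isg20 and Usp18 are highest in T4, Ifih1 is low in naive libraries, and the naive libraries of Isg15, at 72.8 and 164 CPM, span those of both other groups.

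Of the 7 direct antiviral effectors, 3 were lower in N4 than in T4. Isg20, an exonuclease that degrades viral RNA, stood at 17.1 and 15.4 CPM in N4, 93.8 and 89.8 CPM in T4, and 35.3 and 63.9 CPM in naive libraries. The 3 groups did not overlap. Isg20 fell by 2.50 in N4 against T4 (5.64-fold, SE 0.34, adjusted p = 0.0238) and fell by 1.61 against naive (adjusted p = 0.0334). Rsad2, which encodes viperin, an enzyme making a chain terminator of viral RNA, stood at 0.947 and 1.47, 8.57 and 6.27, and 2.71 and 6.54 CPM. N4 was lowest, and naive replicate 2 reached the T4 range.

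Rsad2 fell by 2.62 in N4 against T4 (SE 0.53, adjusted p = 0.0423), while its fold change of -1.94 against naive did not pass (adjusted p = 0.0648). Slfn5 of the Schlafen family stood at 1.29 and 1.19, 3.53 and 3.98, and 4.95 and 3.39 CPM, with N4 low and T4 overlapping naive. It fell by 1.75 in N4 against naive (adjusted p = 0.0328) and fell by 1.60 against T4, where its adjusted p of 0.0498 lies at the threshold. A non-coding gene on the opposite strand overlaps its exons.

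Mx1, a GTPase that blocks influenza virus, differed from that order. It stood at 2.37 and 3.11 CPM in N4, 5.47 and 4.71 CPM in T4, and 1.83 and 1.03 CPM in naive libraries. Naive was lowest and T4 highest, with a fold change of 1.83 in T4 against naive (SE 0.42, adjusted p = 0.144). A mean of 62% of Mx1 counts fell in a transcript annotated for nonsense-mediated decay, with 0.3% to 96.4% in single libraries. Whether the cells make a working protein was not tested. Cmpk2, the neighbour of Rsad2 on chromosome 12 and a kinase that supplies nucleotides to viperin, stood at 3.17 and 3.72, 7.55 and 5.77, and 3.94 and 2.89 CPM. T4 was highest and N4 overlapped naive, unlike its neighbour, and no comparison passed. Slfn8 ranged from 1.41 to 6.99 CPM with N4 lowest, and Bst2 from 229 to 552 CPM, with N4 above T4 in scaled CPM but not under scaling by library size alone. Neither passed in any comparison.

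The ISG15 group covers the modifier, its removal and related ubiquitin or ADP-ribose enzymes. Of its 7 genes 1, Usp18, passed the test. Usp18 removes ISG15 from proteins and blocks signalling at IFNAR2, and it stood at 8.78 and 9.33 CPM in N4, 35.9 and 26.5 CPM in T4, and 11.6 and 18.6 CPM in naive libraries. The groups did not overlap, and Usp18 fell by 1.79 in N4 against T4 (3.45-fold, SE 0.33, adjusted p = 0.0346). Isg15 itself stood at 78.1 and 119, 125 and 139, and 72.8 and 164 CPM. Naive libraries bracketed all the others, while N4 lay below T4 without overlap, and no comparison passed.

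Trim30a, a brake on innate signalling, stood at 14.4 and 23.2, 31.1 and 30.5, and 20.4 and 27.8 CPM. Parp14, an ADP-ribosyltransferase, stood at 8.50 and 12.6, 15.2 and 16.3, and 10.4 and 13.7 CPM. Both were highest in T4 without overlap, and neither passed. Parp9 stood at 6.15 and 4.95, 8.39 and 7.51, and 8.14 and 7.27 CPM, with N4 lowest, and its partner Dtx3l ranged only from 7.17 to 10.7 CPM with all groups overlapping. The exons of Parp9 and Dtx3l overlap on opposite strands, so reads there cannot be assigned. Herc6, the mouse ligase for ISG15, ranged from 8.94 to 14.6 CPM with no group apart.

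Of the 8 IFI genes and others, Ifi35 changed. It encodes a partner of NMI that can be released as a danger signal, and stood at 39.2 and 33.6 CPM in N4, 118 and 122 CPM in T4, and 97.5 and 86.6 CPM in naive libraries. All 3 groups lay apart, with replicates close together. Ifi35 fell by 1.72 in N4 against T4 (3.30-fold, SE 0.23, adjusted p = 0.023) and fell by 1.34 against naive (2.53-fold, SE 0.23, adjusted p = 0.0211). A non-coding gene on the opposite strand overlaps its exons.

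Ifi27l2a was the only gene of the 38 for which both N4 libraries lay above all others, a pattern of 19.5% of all genes tested. It stood at 3670 and 7410 CPM in N4, 1810 and 2190 CPM in T4, and 1220 and 2410 CPM in naive libraries. The N4 libraries differed 2.02-fold, and neither the fold change of 1.47 against T4 (SE 0.49, adjusted p = 0.11) nor that of 1.61 against naive (adjusted p = 0.0856) passed. Each passed under 5 of the 12 alternatives, both of them with DESeq2 (adjusted p = 0.0124 and 0.00773) and with the replicate block (adjusted p = 0.0289 and 0.0189). When naive replicate 1 or 2 was left out the first passed (adjusted p = 0.043 and 0.046), and when naive replicate 2 was left out so did the second (2.17, adjusted p = 0.036). It is also the shortest of the 38, with a mean transcript length of 463 bases, followed by Isg15 with 756 and Bst2 with 791. In naive replicate 2 these 3 genes stood 1.98, 2.26 and 2.22 times as high as in naive replicate 1. The largest ratios were those of Ifi44 (2723 bases) at 2.92 and Rsad2 (3865 bases) at 2.41. Other long genes had lower ratios, such as Slfn5 (5798 bases) at 0.68 and Ifih1 (4927 bases) at 0.89. Among the shorter genes, Ifi35 (1314 bases) had 0.89 and Isg20 (959 bases) 1.81. Over the 38 genes the Spearman correlation of length with this log2 difference was -0.22, beside -0.21 for all genes. Between the N4 libraries it was 0.02, beside -0.09 for all genes. The part of transcript length or RNA quality in these levels was not tested.

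Ifi47, a GTPase of the immunity-related family, was, with Stat2, Oas2, Oasl2 and Ifi204, one of 5 genes with both naive libraries above all others (12.9% of all genes), at 248 and 337 CPM beside 150 and 181 CPM in N4 and 169 and 158 CPM in T4. Its adjusted p was 0.0978 against N4, and its exons overlap those of Olfr56. Ifi204, a DNA-binding protein of the IFI200 family, was low throughout, at 0.707 and 0.689, 0.718 and 0.904, and 1.51 and 2.49 CPM, with naive highest. Rtp4, a chaperone of receptors, stood at 69.0 and 113, 158 and 163, and 149 and 233 CPM, with N4 lowest and an adjusted p of 0.101 against naive. Xaf1, Ifi203 and Ifi44 were highest in T4, without overlap, and did not pass.

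The fold changes were also split by the response element letters. Among the 16 genes holding the GAAA pair, 6 were lower in N4 than in T4, with a median of -0.97. Among the 13 genes with a promoter entry but no match, 4 were lower, with a median of -1.16. Of all genes tested 4.47% were called lower, and the median of all genes was -0.20. Ifit3 and Ifit3b, which are not separate observations, are both among the 6. The part of the response element in these levels was not tested. Oasl1, with the largest fold, and Isg20 had no match in these 300 bases, while Oas3 and Isg15, which passed in no comparison, had one or more. A missing match says only that these letters are not in this window.

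The upstream part of the pathway was read from 7 further gene lists. Beside their counts, 4.47% of all genes tested were called lower and 3.48% higher in N4 against T4. In N4 against naive these shares were 7.18% and 4.87%. None of the 17 type I interferon genes was expressed enough to be tested, and their summed level was 0 in both N4 libraries, 0.057 and 0.189 CPM in T4, and 0.00911 and 0.024 CPM in naive libraries. Of the 10 receptor and JAK-STAT genes, 1 was lower in N4 than in T4 and 2 were lower in N4 than in naive cells. Ifnar2, the signalling chain of the type I receptor, stood at 7.76 and 7.40 CPM in N4, 32.2 and 30.5 CPM in T4, and 27.6 and 20.4 CPM in naive libraries. It fell by 2.05 in N4 against T4 (4.14-fold, SE 0.26, adjusted p = 0.0225) and fell by 1.66 against naive (adjusted p = 0.0172), with N4 far below both. The other chain, Ifnar1, had N4 lowest at 4.64 and 4.35 CPM, beside 10.7 and 10.1 CPM in T4 and 12.6 and 4.94 CPM in naive libraries, and did not pass.

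Ifngr1, the ligand-binding chain of the interferon gamma receptor, stood at 24.2 and 15.3, 57.7 and 44.7, and 70.6 and 45.8 CPM and fell by 1.56 in N4 against naive (adjusted p = 0.0439). None of the 13 genes that induce interferon, such as Mavs, Irf3 and Tbk1, passed edgeR's test in any comparison. At an unadjusted p under 0.05, 1 was higher and 5 lower in N4 against naive, 0 and 2 in T4 against naive, and 1 and 5 in N4 against T4. The share of all genes at that level was not computed. Of the 8 negative regulators, Socs3 and Socs1 were lower in N4 than in naive cells. Socs1 stood at 61.2 and 59.0, 52.0 and 60.7, and 142 and 282 CPM, and Socs3 at 4.08 and 2.55, 4.45 and 3.84, and 38.3 and 15.8 CPM, so both peptide groups lay far below naive cells. The fold changes in N4 against naive were -1.82 for Socs1 (adjusted p = 0.0318) and -3.03 for Socs3 (adjusted p = 0.0208).

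Of the 21 genes tied to interferon gamma, 6 were lower in N4 than in naive cells (7.18% of all genes tested). Lower in N4 than in T4 were 2 (4.47% of all genes), and none was higher in either comparison. The 2 were Tgtp1 and Tgtp2, near-identical GTPases whose values are not separate. Tgtp2 stood at 35.1 and 31.9 CPM in N4, 114 and 102 CPM in T4, and 130 and 117 CPM in naive libraries, and fell by 1.69 against T4 (adjusted p = 0.0233). Irf1 stood at 13.7 and 14.2, 27.3 and 30.6, and 43.8 and 33.9 CPM, and fell by 1.48 in N4 against naive (adjusted p = 0.0204). Of the 12 genes of class I antigen presentation, Psmb10 was lower in N4 against both groups, and H2-K1 against T4. Psmb10, an immunoproteasome subunit, stood at 99.1 and 71.9, 248 and 254, and 206 and 214 CPM.

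A further 50 interferon-stimulated genes held 5 lower and 1 higher in N4 against T4, beside 4.47% and 3.48% of all genes tested. In N4 against naive they held 6 lower and 1 higher, beside 7.18% and 4.87%. Their median log2 fold change was -0.85 against T4 and -0.76 against naive, beside -0.20 and -0.09 for all genes. Uba7, which charges ISG15, stood at 1.76 and 3.69 CPM in N4, 16.3 and 16.8 CPM in T4, and 14.1 and 11.9 CPM in naive libraries, and fell by 2.6 in N4 against T4 (adjusted p = 0.0275). Ube2l6, which hands ISG15 on, stood at 21.7 and 22.7, 96.7 and 85.8, and 35.6 and 66.5 CPM, and fell by 2.04 (adjusted p = 0.0312). Ly6a, a surface protein of activated T cells, was higher in N4 than in T4, at 5630 and 8190 CPM beside 244 and 302, with naive libraries at 286 and 1800 CPM (log2 fold change 4.66, adjusted p = 0.0391). No gene of these 7 lists passed edgeR's test in T4 against naive.

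Markers of other cell types moved with the groups. For the counts called in N4 against T4, the shares of all genes tested were 4.47% lower and 3.48% higher. In N4 against T4, 6 of 10 tested B cell markers were lower, and their summed level was 47.9 and 32.2 CPM in N4, 169 and 146 CPM in T4, and 228 and 154 CPM in naive libraries, with Pax5, Blnk and Fcer2a among the markers at 0 in both N4 libraries. Of 10 dendritic cell markers, 3 were lower and 1 higher, and they summed to 103 and 86.4, 573 and 554, and 2110 and 1340 CPM. Of 12 macrophage and monocyte markers 4 were lower. Their sum, taken without Ly6c2, a choice made after its values were seen because T cells express it, was 21.8 and 19.1, 270 and 258, and 2280 and 2670 CPM, with Adgre1 at 0 in N4 and Cd5l at 0 in T4. With Ly6c2 the sum was 4230 and 5920, 1420 and 1560, and 3310 and 8040 CPM.

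Red cell markers, 5 of 7 of which were lower in N4 than in T4, summed to 423 and 360, 6510 and 8120, and 3450 and 9230 CPM, with Alas2 at 0 in N4. Of 8 plasmacytoid dendritic cell markers 2 were lower. They summed to 434 and 569, 362 and 393, and 336 and 691 CPM, mostly through Bst2. Siglech was at 0 in both N4 libraries, at 1.51 and 3.06 CPM in T4 and at 0.339 and 0 CPM in naive libraries. Ccr9 went the other way between T4 and naive, at 0.698 and 0.976 CPM in T4 beside 25.4 and 9.03 CPM in naive libraries. In T4 against naive 3 of the 8 had a log2 fold change above 0 and 5 below, with a median of -0.38. Of 6 natural killer cell markers 3 were lower, and they summed to 771 and 997, 297 and 317, and 409 and 1040 CPM, mostly through Gzma, which CD8+ T cells also express. Neutrophil markers, with none of 8 called between N4 and T4 by edgeR but 3 higher at an unadjusted p under 0.05, summed to 47.8 and 38.3, 12.2 and 4.84, and 2450 and 25300 CPM, with Ltf at 0 in N4 and Mmp8 at 0 in T4. Against naive, N4 had more of these markers called lower, beside 7.18% of all genes tested, and none higher. They were 7 of 8 neutrophil, 10 of 12 macrophage and monocyte, 7 of 10 B cell and 6 of 10 dendritic cell markers. So were 6 of 7 red cell, 4 of 6 natural killer cell and 3 of 8 plasmacytoid dendritic cell markers. In T4 against naive none was called. There 8 neutrophil and 10 macrophage and monocyte markers were lower without overlap (22.6% of all genes). The part of these cells in the levels of the 38 genes was not tested.

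**Figure D4:**
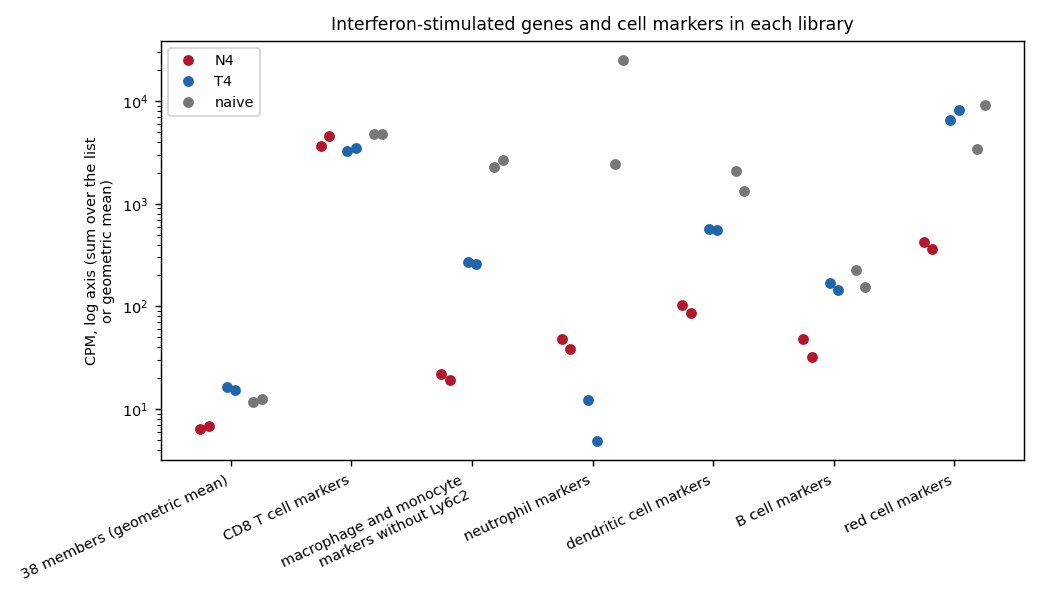
Geometric mean CPM of the 38 genes and summed CPM of marker lists of 6 cell types in each library (points), on a log axis. The 38 genes and the B cell, dendritic cell and red cell markers and the macrophage and monocyte markers without Ly6c2 (left out after its values were seen) are lowest in the N4 libraries, CD8 T cell markers lie between 3300 and 4840 CPM in all 6, and the naive libraries differ most in neutrophil markers, at 2450 and 25300 CPM.

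Use of alternative transcripts was tested for 32 of the 38 genes with edgeR's diffSpliceDGE, and none passed in any comparison. Among all 10394 genes with this test, 0.808% passed in N4 against naive, 0.26% in T4 against naive and 1.04% in N4 against T4, and no other tool was run. At an unadjusted p under 0.05 there were 3, 1 and 6 of these 32 genes, and the share of all genes at that level was not computed. Stat2 had the smallest p in N4 against naive (adjusted p = 0.109). It was singled out after its values were seen, because the share of its counts in 2 coding transcripts switched between naive and stimulated cells. Stat2-202 held 78.9% and 64.1% of the gene's counts in the N4 libraries, 77.2% and 58.6% of them in T4, and 0% in both naive libraries. Stat2-201 held 0% in each N4 library, 0% and 10.9% of the counts in T4, and 93.5% and 90.2% of them in naive libraries.

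These 2 transcripts of 24 exons differ by 3 bases at the start of exon 15, which begins at 128283230 in Stat2-202 and at 128283233 in Stat2-201 on chromosome 10 (GRCm38, plus strand). The cDNA across the junction of exons 14 and 15 is shown with the extra bases in capitals.
Stat2-201: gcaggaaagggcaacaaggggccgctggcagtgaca
Stat2-202: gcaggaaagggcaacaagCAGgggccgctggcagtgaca

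The deposited values are estimates per transcript model, and how well they separate models this alike was not tested. Some genes switched as far between the 2 libraries of a group. Rsad2-201 held 100% and 0% of its gene's counts in the N4 libraries, and also 100% and 0% in naive libraries. Other genes kept their shares, such as Dtx3l, where Dtx3l-201 held 98.1% to 99.5% in every library. Among the other genes, a Cmpk2 transcript annotated as a retained intron held 0.4% and 0% of the gene's counts in the N4 libraries, 17.6% and 11.9% of them in T4, and 7.3% and 39.8% of them in naive libraries (adjusted p = 0.233 in N4 against T4). It was lowest in N4, and the naive libraries were far apart.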

How the data were processed

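Polyadenylated RNA of 6 libraries was extracted with a miRNeasy Micro kit and converted with a SMARTer ultra-low input kit, per the labels' protocols. Build mm39, DESeq2 1.30.1, R 4.0.5, STAR 2.7.1a, StringTie 2.1.0 and SAMtools 1.9 stand in the submitters' processing notes, which do not say what each did. Annotation release and read length were not given in the sources used here. Both tables deposited by the authors (genes, and 142435 transcripts) were read as estimated counts that are not normalized; this was judged from the values, which are whole numbers with totals that differ between libraries but match between the tables. Such estimates can depend on an assumed read length, and a total here is no count of sequenced reads.

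Symbols were found for 52081 gene identifiers (94.0%) and GENCODE M21 models for 138346 transcripts (97.1%). Gene models, transcript lengths and coordinates are on GRCm38, a different build from that of the deposited values. Genes were filtered with filterByExpr by group, scaled with TMM and fitted with edgeR 4.0.16 (R 4.3.3, limma 3.58.1) on group means, with a threshold of 0.05 after Benjamini-Hochberg adjustment. The common biological coefficient of variation was 0.67, with 3 residual and 3.1 prior degrees of freedom. No exact permutation test is given, since with 2 libraries in each group its p is at least 0.33. CPM was computed from the counts, and TPM from the counts and transcript lengths. Transcript usage was tested on 42446 transcripts. Both procedures were tested on simulated data. For the gene test, changes were placed in genes drawn from all those tested. It recovered 0% of 2-fold changes, 2.99% to 5.97% of 4-fold changes and 39.4% to 57.6% of 16-fold changes over the 3 comparisons. Between replicates, chi-square per degree of freedom was 118.4 in T4, 343.4 in N4 and 2206.5 in naive libraries. It was computed on estimated counts, which are no counts of sequenced reads, so its distance from sampling noise is unknown. Replicates were kept as separate samples.

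The 38 genes, the 7 roles, the 7 further lists and the 9 marker lists were chosen with earlier results of these data known. Values in every library are given for up to 5 genes of each role with the smallest adjusted p in any comparison and for every gene past the threshold, and up to 4 genes of each further list are named. Alternatives were scaling by library size, other filters, a fit of only the 2 groups compared, a replicate block, DESeq2 1.42.0 and leaving out each library. Some items are not reported here.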

Additional observations from a re-analysis of the deposited data

How the results depend on the processing

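Over 12 alternatives, 28 of 114 pairs of gene and comparison changed sign, and the largest log2 fold change that turned was 0.75 (Bst2). Among them were 0 of the 21 called pairs and 0 of the 49 with an unadjusted p under 0.05. Those pairs were picked by p from the same libraries that the alternatives refit. Their lack of sign changes was thus nearly fixed in advance and adds no support to the calls. Scaling by library size moved the median of all genes to -0.65 (N4 against naive), 0.30 (T4 against naive) and -1.05 (N4 against T4), and that of the 38 genes to -1.44, 0.69 and -1.81; it called 20 of the 38 lower in N4 against T4 and 53 genes in all in T4 against naive. For N4 against naive, 2772 genes in all were called, 4257 with no filter, 1044 with only the 2 groups compared and 6186 with DESeq2. Of the 38, these 3 alternatives called 14, 3 and 16 lower, and the last 2 called 0 and 2 higher. For T4 against naive, 27 genes were called, 956 with no filter, 287 at 1 CPM in 2 libraries, 0 with only the 2 groups, 130 with the replicate block and 1997 with DESeq2, which called 3 higher and 1 lower of the 38. For N4 against T4, 1830 genes were called, 3834 with no filter, 3048 at 1 CPM, 5281 with only the 2 groups, 3367 with the replicate block and 5755 with DESeq2. Only the 2 groups and DESeq2 each called 17 of the 38 lower, and those 2 and the block each called 1 higher. The cause was not tested. The deviations of same-numbered libraries had correlations of 0.02, 0.08 and 0.04 between groups. Such values cannot show whether these libraries share a mouse, a day or a batch. With the replicate block 13 of the 38 were lower in N4 against T4, the 11 included. In N4 against naive 10 were lower with the block, where Ifih1 lost its call (adjusted p = 0.053) and Ifi27l2a gained one (adjusted p = 0.0189). Leaving out 1 library gave 639 to 4487 genes, 0 to 1 higher and 0 to 11 lower of the 38 and a median of -1.0 to -0.70 in N4 against naive; 0 to 357 genes, 0 of the 38 and 0.11 to 0.43 in T4 against naive; and 0 to 4547 genes, 0 to 1 higher, 0 to 15 lower and -1.16 to -0.72 in N4 against T4. No gene of the 38 passed the transcript test under any alternative run for it. With 2 libraries a group, a difference that misses the threshold is not shown to be absent.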

Other observations

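Among the further interferon-stimulated genes, Lgals9, which encodes galectin-9, a ligand of inhibitory receptors, measured 56.6 and 35.0 CPM in the N4 libraries, 373 and 335 CPM in T4, and 194 and 146 CPM in naive libraries. The 3 groups did not overlap, and Lgals9 fell by 2.95 in N4 against T4 (edgeR adjusted p = 0.0205) and fell by 1.89 against naive (adjusted p = 0.0225). Phf11b went the other way, at 102 and 119 CPM in N4, 77.0 and 73.7 CPM in T4, and 46.9 and 48.9 CPM in naive libraries, and rose by 1.21 in N4 against naive (adjusted p = 0.0253).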
